A study of Mus musculus with 24 samples.

Results

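The calcium response was compared between the control cells of the silencing experiment (*shScr*) and the uninduced cells of the overexpression experiment (ID1 -dox), by polyadenylated RNA sequencing of primary mouse epidermal progenitors before and after 24 h of high calcium. The comparison used 12 of the 24 libraries of the series, 3 for each culture at 0 h and 3 at 24 h, and was chosen by the sample labels and not by any measured value. The *shScr* cells carry a lentiviral scrambled hairpin, and the ID1 -dox cells a lentiviral construct for doxycycline-inducible ID1 and received no doxycycline. All 4 groups are wild-type primary keratinocytes, which the study established from newborn pups on 3T3-J2 fibroblast feeders and kept in low calcium until the cultures were confluent. For each of 10801 genes, the change in *shScr* cells was subtracted from the change in ID1 -dox cells on the log2 scale, and this value is called the response difference below. It is positive where the ID1 -dox cells moved further up or less far down.

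Calcium is the classical switch of keratinocyte differentiation in culture. In low calcium the cells stay in a proliferating, basal-like state, held to the basement membrane by integrins and hemidesmosomes. High calcium lets cadherins engage and desmosomes form, the cells leave the cell cycle, and spinous genes (keratin 10, desmosomal cadherins, involucrin) are followed by granular and cornified envelope genes, whose products are cross-linked by transglutaminases under the plasma membrane. ID proteins are inhibitors that bind E-proteins, a class of basic helix-loop-helix transcription factors, and keep them off DNA.

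The cultures differ in vector, in experiment and possibly in donor cells and handling, so none of these can be told apart as a source of a response difference. With no 24 h library in low calcium, the effect of calcium and that of a further day in culture cannot be told apart either. The 3 libraries of a group are labelled as biological replicates, and the p-values measure the spread between them. All 11 keratinocyte markers were present in every library, with *Krt5* at 9132 to 22086 and *Krt14* at 14003 to 32899. Values are in the authors' deposited unit, counts scaled to library size by TMM. This level compares libraries, not genes, because it is not divided by length. Of the 11 markers 2 rose and 1 fell in each culture by the limits given below. The fall was *Itga6*, with 372 to 500 at 0 h and 189 to 222 at 24 h in *shScr* cells and 424 to 484 and 176 to 212 in ID1 -dox cells. Of 24 fibroblast and feeder markers 5 are in the table. Their summed level was 744 to 997 (*shScr* 0 h), 309.6 to 372 (*shScr* 24 h), 659 to 787 (ID1 -dox 0 h) and 603 to 636 (ID1 -dox 24 h). Most of it was *Sparc*, which keratinocytes can also express. The lower sums at 24 h were carried by *Sparc* in *shScr* cells and by *Sparc* and *Postn* in ID1 -dox cells. *Col6a1*, *Col6a2* and *Postn* had higher values at 24 h than at 0 h in every *shScr* library, where *Col6a1* had 19.2 to 33.2 at 0 h and 71.4 to 78.3 at 24 h, *Col6a2* 10.7 to 16.5 and 24.5 to 29.6, and *Postn* 8.21 to 13.7 and 20.4 to 32.9. In ID1 -dox cells *Postn* had 96.1 to 136 at 0 h and 23.2 to 31.5 at 24 h, and *Col5a2* 4.85 to 7.05 and 1.57 to 2.08. *Col6a1* went up there, with 41.4 to 42.6 and 174 to 191, as did *Col6a2*, with 17.4 to 19.5 and 54.4 to 67.3. The *shScr* values of *Col5a2* overlapped between times, at 1.33 to 2.58 and 1.66 to 2.8. The defining fibroblast genes *Col1a1*, *Col3a1*, *Pdgfra* and *Vim* have no value in the table. By the value of 1 read, estimated from the values, the table held between 21442371 and 30353746 reads of each of 11 libraries. For *shScr* 24 h replicate 1 that estimate did not pass its check, and its count of 31009753 is uncertain. Libraries of a group correlated with r of 0.978 to 0.996. The *shScr* libraries numbered 1 stood furthest from their groups. Bulk RNA cannot tell fewer cells of a kind from less RNA per cell.

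In both control cultures cornified envelope genes rose and DNA replication genes fell, while spinous, adhesion, actin and late envelope genes responded differently. With an adjusted p under 0.05 (limma, Benjamini-Hochberg) and a change of more than 2-fold, 1180 genes rose (10.9% of those tested) and 860 fell (7.96%) in *shScr* cells, against 1597 that rose (14.8%) and 1721 that fell (15.9%) in ID1 -dox cells. Held in both cultures were 703 rises and 509 falls, which make up 59.4% of the *shScr* and 36.5% of the ID1 -dox responses. By the response difference itself 2267 genes passed, 846 above 0 (7.83%) and 1421 below 0 (13.2%), while the median over all genes was -0.07. These shares over all genes tested are the background for the count of every list below, apart from counts of the GC-centred fit described next. Calling a response specific to a culture when it passed there, did not pass in the other culture and the response difference also passed, 223 rises and 154 falls were specific to *shScr* cells, and 397 rises and 648 falls to ID1 -dox cells. A further 69 genes passed in both cultures in opposite directions. Another 382 genes passed in *shScr* cells alone and 992 in ID1 -dox cells alone without a difference between the responses being shown, and they are counted in neither class.

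**Figure D1:**
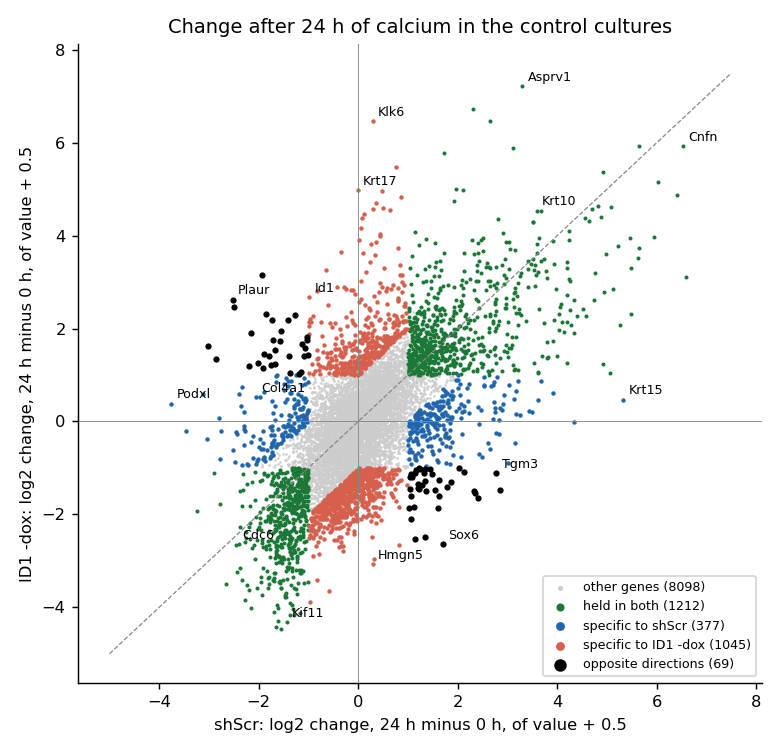
Change in level after 24 h of calcium in *shScr* cells (horizontal axis) and ID1 -dox cells (vertical axis), as log2 of the value plus 0.5, with 1 point per gene for 10801 genes and equal change on the dashed line. Green points are the 1212 genes that passed in both cultures in the same direction, blue the 377 specific to *shScr* cells, red the 1045 specific to ID1 -dox cells and black the 69 that moved in opposite directions, and the edges of the coloured areas follow from the limits.

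A property of the transcripts ran through the ID1 -dox response, and its values stand here before the genes. Ordered by the GC content of their longest transcript, the 2160 genes of lowest GC content (31.0% to 43.7%) had a median change of -0.13 in *shScr* cells and -0.88 in ID1 -dox cells, and the 2160 of highest GC content (55.3% to 72.8%) one of 0.25 and 0.72. At 0 h the cultures did not differ in this way, with medians of -0.03 and 0.02. The falls specific to ID1 -dox cells had a median GC content of 41.0% and a length of 4153 bases, against 49.4% and 3360 bases over all genes tested. Mitochondrial-encoded genes moved with it: they held 3.20% to 3.47% of the values in ID1 -dox cells at 0 h and 0.838% to 0.908% at 24 h, against 2.27% to 2.45% and 2.29% to 2.95% in *shScr* cells. Chosen after these values were seen, a fit with each library centred within 20 bins of GC content gave 1500 response differences (633 above and 867 below 0) instead of 2267, of which 1193 were shared, and 205 falls specific to ID1 -dox cells instead of 648, of which 144 were shared. The rises specific to ID1 -dox cells came to 273 instead of 397, of which 200 were shared. The numbers held in both cultures (1033) and specific to *shScr* cells (405) moved less, but their members changed. Shared were 465 of 703 held rises, 392 of 509 held falls, and 152 of 223 rises and 105 of 154 falls specific to *shScr* cells. For list counts with GC-centred libraries the background is the 633 genes above and 867 below 0 among the 10801 tested. The part of GC content and of the mitochondrial share in the response differences was not tested.

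**Figure D2:**
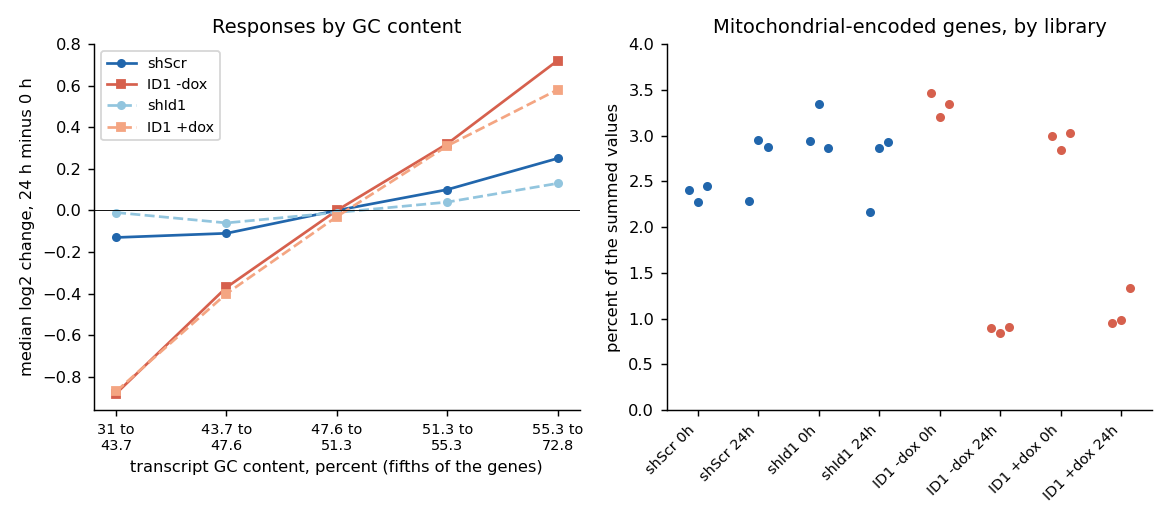
Left, the median log2 change after 24 h of calcium over genes ordered into groups of rising transcript GC content (horizontal axis, percent), for the 4 cultures of the series; right, the percent of the summed values held by mitochondrial-encoded genes in each of the 24 libraries (points). The ID1 -dox and ID1 +dox lines climb from -0.88 and -0.87 to 0.72 and 0.58, the *shScr* and *shId1* lines only from -0.13 and -0.01 to 0.25 and 0.13, and the 6 overexpression libraries at 24 h hold 0.838% to 1.33%.

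Promoters of 5 genes are printed because each stands for a class described below and the study concerns helix-loop-helix factors and C/EBP alpha, whose motifs were searched. They are RefSeq windows around an annotated start (GRCm38.p6), 5′ to 3′ on the gene's strand. In the first 4, capitals mark CACCTG or CAGCTG (E-boxes), TGANTCA (an AP-1 site), TTGCNNAA (a C/EBP site) and AACNGGTT (a grainyhead-type site), searched on both strands, and the printed matches do not overlap. In *Col4a2*, which lies head to head with *Col4a1*, capitals mark instead the 78 bases that the windows of these genes share.
Krt10, chr11:99389315-99389614, - strand: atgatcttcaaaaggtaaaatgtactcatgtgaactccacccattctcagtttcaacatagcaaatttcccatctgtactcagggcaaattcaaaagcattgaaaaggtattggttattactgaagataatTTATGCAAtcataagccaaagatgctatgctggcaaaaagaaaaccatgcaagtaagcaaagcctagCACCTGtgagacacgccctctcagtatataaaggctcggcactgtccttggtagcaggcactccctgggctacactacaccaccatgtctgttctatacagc
Tgm3, chr2:130012090-130012389, + strand: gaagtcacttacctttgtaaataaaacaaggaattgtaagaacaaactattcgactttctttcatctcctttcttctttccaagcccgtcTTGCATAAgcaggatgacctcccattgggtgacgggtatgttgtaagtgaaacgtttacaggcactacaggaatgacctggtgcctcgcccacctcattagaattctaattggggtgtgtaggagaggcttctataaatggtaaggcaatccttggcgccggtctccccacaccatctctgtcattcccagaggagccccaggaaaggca
Pof1b, chrX:112698602-112698901, - strand: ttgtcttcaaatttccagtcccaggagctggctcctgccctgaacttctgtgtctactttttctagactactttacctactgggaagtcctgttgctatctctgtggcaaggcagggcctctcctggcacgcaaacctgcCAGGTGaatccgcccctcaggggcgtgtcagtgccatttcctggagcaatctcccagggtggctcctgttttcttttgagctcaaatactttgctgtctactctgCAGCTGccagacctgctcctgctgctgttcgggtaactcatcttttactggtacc
Lce1k, chr3:92807842-92808141, - strand: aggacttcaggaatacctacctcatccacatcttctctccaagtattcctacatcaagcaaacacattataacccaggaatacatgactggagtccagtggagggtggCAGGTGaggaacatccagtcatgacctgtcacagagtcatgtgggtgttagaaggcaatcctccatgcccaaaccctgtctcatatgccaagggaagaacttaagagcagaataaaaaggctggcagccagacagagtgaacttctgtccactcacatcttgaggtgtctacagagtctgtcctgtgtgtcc
Col4a2, chr8:11312555-11312854, + strand: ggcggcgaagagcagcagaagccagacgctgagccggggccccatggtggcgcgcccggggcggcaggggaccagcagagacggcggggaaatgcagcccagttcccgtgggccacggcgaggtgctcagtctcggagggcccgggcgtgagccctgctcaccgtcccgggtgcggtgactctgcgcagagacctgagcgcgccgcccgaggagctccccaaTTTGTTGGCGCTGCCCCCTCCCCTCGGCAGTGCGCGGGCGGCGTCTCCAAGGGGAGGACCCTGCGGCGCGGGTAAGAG
*Krt10* (held in both cultures) has a CACCTG match and a TTGCNNAA match, *Tgm3* (opposite directions) has a TTGCNNAA match, *Pof1b* (a rise specific to *shScr* cells) has a CACCTG and a CAGCTG match, and *Lce1k* (a rise specific to ID1 -dox cells) has a CACCTG match. *Col4a2* (a fall specific to *shScr* cells) has none of these letters in its window.

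The 10 largest rises held in both cultures included envelope genes and genes of varied function. *Cnfn* (cornifelin, an envelope protein) had levels of 8.39, 1.88 and 3.2 in *shScr* cells at 0 h and 213, 424 and 684 at 24 h. In ID1 -dox cells it went from 24.4, 11 and 11.4 to 743, 1136 and 897. The change was 6.53, SE 0.54, limma adjusted p = 2.4e-06 in *shScr* and 5.92, SE 0.54, limma adjusted p = 2.9e-06 in ID1 -dox cells, and the response difference had a 95% interval of -2.31 to 1.09. *Krt10*, the spinous keratin, rose from 6.96 ± 0.603 (SD, n = 3) to 90.4 ± 19.1 (SD, n = 3) in *shScr* and from 8.69 ± 2.84 (SD, n = 3) to 213 ± 64.2 (SD, n = 3) in ID1 -dox cells, with no overlap between times in either culture. The response difference of *Krt10* was 0.95 (95% interval 0.24 to 1.65), under the 2-fold limit. *Sprr1a* and *Sprr2d*, small proline-rich proteins that are cross-linked into the envelope, changed by 4.56 and 4.63 in *shScr* and 4.38 and 4.32 in ID1 -dox cells. Of 13 genes named *Sprr* that were tested, a group picked out after its values were seen, 12 were held rises and *Sprr2f* was a rise specific to ID1 -dox cells.

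The other large held rises were of varied function. *Arg1* (arginase) went from 0.215, 0.156 and 0.206 to 18.3, 27.3 and 17.1 in *shScr* and from 1.63, 1 and 1.2 to 60.3, 77.8 and 79.3 in ID1 -dox cells. *Ndufa4l2*, a mitochondrial protein known as a hypoxia target, rose by 5.65 and 5.93, *Cyp4f39*, a fatty acid hydroxylase of skin ceramide synthesis, by 5.09 and 4.62, and the beta-defensin *Defb14* by 4.82 and 4.64 in *shScr* and ID1 -dox cells. *Krt23* and *Lypd5* rose by 4.70 and 4.88 in *shScr* cells and by 4.57 and 4.39 in ID1 -dox cells. *Selenbp1*, a selenium-binding protein, rose in both and less in ID1 -dox cells (response difference -1.52, SE 0.50, limma adjusted p = 0.022). That call was lost under quantile normalization (-1.25), without *shScr* 24 h replicate 2 (-1.2), without ID1 -dox 0 h replicate 1 (-1.33) and without ID1 -dox 24 h replicate 1 (-1.25).

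Parts of the hypoxia, sterol synthesis and antioxidant lists also rose in both cultures. Of 31 hypoxia and glycolysis genes, 18 rose in *shScr* and 25 in ID1 -dox cells, 16 of them in both, with medians of 1.09 and 1.48 (all genes: 0.01 and -0.02). Of 23 sterol synthesis genes 12 and 8 rose (medians 1.04 and 0.85), and 3 had a response difference under 0, *Hmgcs1*, *Sc5d* and *Idi1* (-1.09, -1.04 and -1.31). None of these 3 passed with GC-centred libraries (-0.58, -0.54 and -0.69). For 21 NRF2 and redox genes the counts were 8 and 9 up, 2 and 4 down.

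DNA replication genes led the held falls. *Mcm10*, which loads polymerase at replication origins, fell from 79.2, 73.2 and 68.3 to 12.8, 15.2 and 14.7 in *shScr* cells and from 40.6, 53 and 49.2 to 3.75, 4.18 and 4.07 in ID1 -dox cells. The levels at 24 h did not overlap those at 0 h in either culture, and ID1 -dox cells ended lower. *Cdc6*, the origin licensing factor, fell from 53.6 ± 9.03 (SD, n = 3) to 9.4 ± 1.4 (SD, n = 3) and from 23.6 ± 4.08 (SD, n = 3) to 3.31 ± 0.535 (SD, n = 3), by 2.45 and 2.65 on the log2 scale. *Pola1*, the catalytic subunit of polymerase alpha, fell by 2.27 and 3.83 (response difference -1.56, SE 0.21, limma adjusted p = 3e-05, and -0.94 with GC-centred libraries). The nucleases *Dna2* and *Exo1* fell by 2.43 and 2.37 in *shScr* and 3.24 and 3.15 in ID1 -dox cells, and the secreted guidance protein *Sema3c* by 2.40 and 2.63. *Cdc7*, *Zdhhc2*, *Rassf2* and *Fbxo5*, an inhibitor of the anaphase-promoting complex, completed the 10 largest. Of 40 S phase genes 33 fell in both cultures, with medians of -1.51 and -1.99.

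Mitotic genes fell in both cultures and further in ID1 -dox cells. Of 42 G2 and mitosis genes 35 fell in *shScr* and 41 in ID1 -dox cells, with medians of -1.38 and -2.79, and 28 had a response difference under 0. With GC-centred libraries 27 did, with a median of -1.12 in place of -1.36. *Kif11*, the spindle motor kinesin-5, went from 197, 209.9 and 219.5 to 94.1, 78.1 and 60.7 in *shScr* cells. In ID1 -dox cells it went from 176, 195 and 197 to 10.1, 7.73 and 9.38, so the cultures started at overlapping levels and ended apart (response difference -2.87, SE 0.19, limma adjusted p = 4.5e-07). The kinetochore genes *Nuf2*, *Ttk* and *Spc25* had response differences of -2.33, -2.24 and -2.17. Among S phase genes 8 of 40 had a response difference under 0, against 13.2% of all genes tested. With GC-centred libraries 5 of 40 did, against 867 of all 10801 genes. The 8 included *Ccne2*, which encodes cyclin E2 (-2.06), *Gins1* (-1.68) and *Rrm1* (-1.04, and -0.54 with GC-centred libraries).

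**Figure D3:**
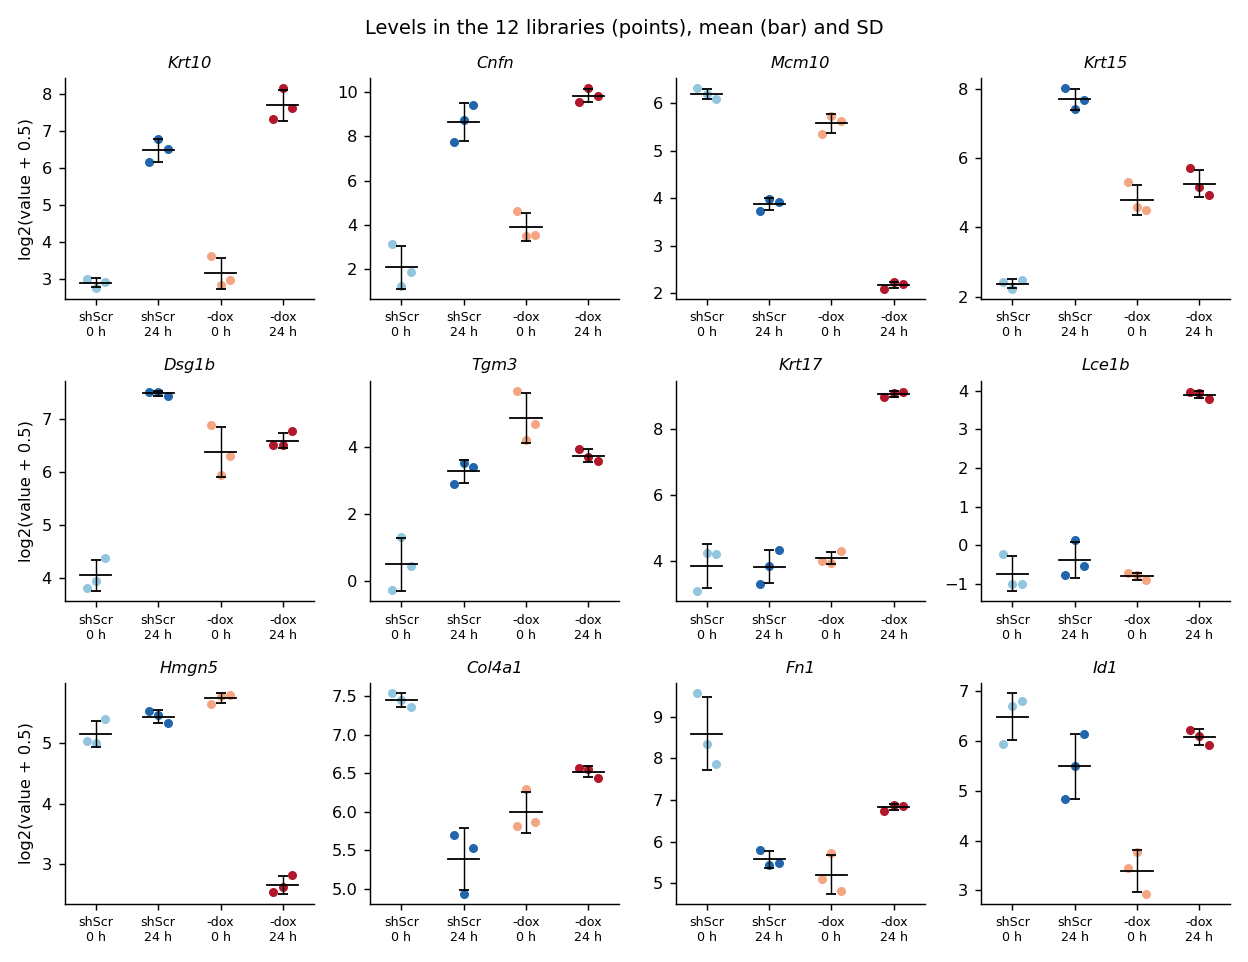
Levels of 12 genes in the 12 libraries (points, replicates 1 to 3 from left to right), as log2 of the value plus 0.5, with the mean (long bar) and SD (short bars) of each group of 3. *Krt10*, *Cnfn* and *Mcm10* move the same way in both cultures, *Krt15*, *Dsg1b* and *Col4a1* pass the limits only in *shScr* cells, *Krt17*, *Lce1b*, *Hmgn5* and *Id1* only in ID1 -dox cells, and *Tgm3* and *Fn1* pass in both in opposite directions.

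Among held responses, 303 of 1212 also differed in size between the cultures. Of the held rises 66 were larger in ID1 -dox and 86 in *shScr* cells, and of the held falls 147 were larger in ID1 -dox and 4 in *shScr* cells. For 543 held genes the 95% interval of the response difference lay within 1 of 0, that is within 2-fold. *Asprv1*, the protease that processes filaggrin, rose in ID1 -dox cells from 3.63, 2.92 and 3.68 to 508, 791 and 482, and went from 2.01, 1.13 and 0.823 to 23, 14.6 and 14 in *shScr* cells (response difference 3.92, SE 0.35, limma adjusted p = 2.6e-06). The keratin genes *Krt84* and *Krt90* and the cornification gene *Crct1* also rose further in ID1 -dox cells (4.42, 4.06 and 3.82), and for *Krt84* edgeR gave 3.64 without passing. The transmembrane gene *Tmem45a* rose further in *shScr* cells (-3.67), from 10.9, 11.1 and 13 to 279, 449.9 and 384. In ID1 -dox cells it went from 148, 95.5 and 129 to 274, 286 and 309.9, a start above every *shScr* library at 0 h.

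The rises specific to *shScr* cells included keratin and desmosome genes and 3 of the 7 spinous genes that the study names. *Krt15* (ENSMUSG00000054146, chromosome 11, 100131758 to 100135928), a basal and follicle keratin, had the largest difference. Its level was 4.84, 4.18 and 5.11 in *shScr* cells at 0 h and 259, 170.1 and 207 at 24 h, and 39.1, 23.4 and 22.4 and 51.8, 35.3 and 30 in ID1 -dox cells. Every *shScr* library at 24 h lay above every other library, and the ID1 -dox times overlapped (response difference -4.87, SE 0.32, limma adjusted p = 4.5e-07). The desmosomal cadherin genes *Dsg1a* and *Dsg1b*, which the study lists among spinous genes, rose by 3.49 and 3.44 in *shScr* cells and changed by 0.20 and 0.22 in ID1 -dox cells (limma adjusted p = 0.58 and 0.32). *Dsg1b* stood at 16.4 ± 3.62 (SD, n = 3) in *shScr* and 86 ± 28.6 (SD, n = 3) in ID1 -dox cells at 0 h, and at 179 ± 5.93 (SD, n = 3) and 97.1 ± 10.5 (SD, n = 3) at 24 h. These 2 genes are close copies, so reads may be split between them.

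Further members were enzymes and lipid carriers. *Cyp17a1*, a steroid hydroxylase, went from 1.51, 2.2 and 3.67 to 23.2, 27 and 23.9 in *shScr* and from 9.07, 6.74 and 8.12 to 6.59, 5.04 and 5.31 in ID1 -dox cells. *Pof1b*, an actin-binding protein of desmosomes, had a response difference of -3.25, *Fabp4*, a fatty acid carrier, of -3.31 and *Lipn*, an epidermal lipase, of -3.26. *Drc1*, a ciliary dynein regulator, and *Prkar2b*, a regulatory subunit of protein kinase A, had -4.36 and -3.91. In *Krt15*, *Dsg1a* and these 6 genes, the 8 largest of the class by size, every ID1 -dox library at 0 h lay above every *shScr* library at 0 h. Ranking by size favours such genes, because the response difference is the difference at 24 h minus that at 0 h. Over the whole class of 223 genes, 123 were called higher in ID1 -dox cells at 0 h and 100 had no call.

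Lists of spinous and barrier genes followed this pattern in part. Of the 7 spinous genes the study names, which it chose on these samples and so are no independent evidence, all 7 rose in *shScr* cells, 3 rose and 1 fell in ID1 -dox cells, and 6 had a response difference under 0. *Cebpa*, which encodes the differentiation factor C/EBP alpha, rose from 0.897, 1.37 and 1.32 to 22.8, 24 and 21.6 in *shScr* cells. In ID1 -dox cells it rose from 11, 4.61 and 6.67 to 19.9, 21.3 and 16.2, a smaller change from a higher start (response difference -2.41, SE 0.33, limma adjusted p = 3.8e-05). *Ivl* (involucrin) rose in *shScr* cells (1.63) and had -0.62 in ID1 -dox cells, and the transglutaminase *Tgm5* rose in both (4.93 and 2.78). Of 18 suprabasal keratin and desmosome genes 13 rose in *shScr* and 9 in ID1 -dox cells, and 8 had a response difference under 0 against 1 above. The desmocollins *Dsc1*, *Dsc2* and *Dsc3* had -2.62, -1.74 and -1.37, the last -0.74 and under the limit with GC-centred libraries. Of 25 barrier lipid genes 18 rose in *shScr* and 14 in ID1 -dox cells, with 10 response differences under 0, among them *Acer1*, an alkaline ceramidase (-2.60), *Hpgds*, a prostaglandin D2 synthase (-2.52), *Lipm* (-1.90) and *Elovl6* (-1.42).

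**Figure D4:**
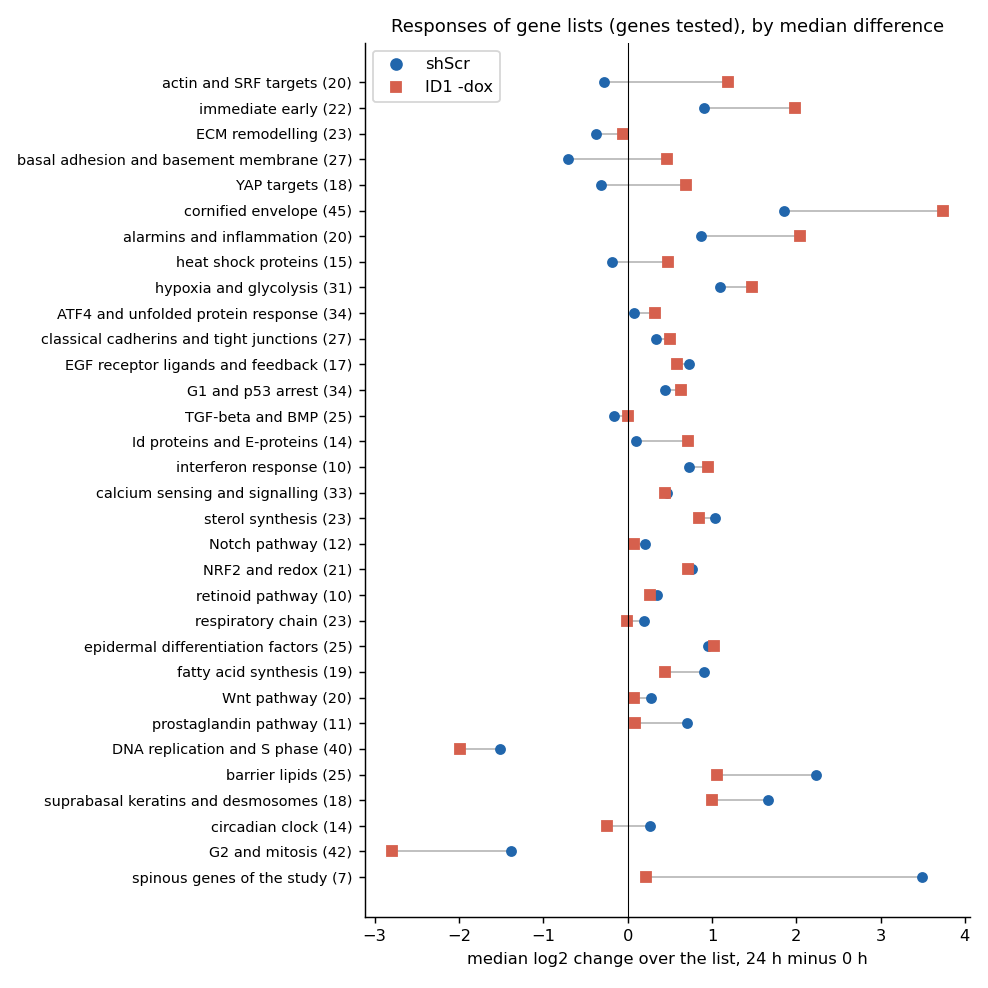
Median log2 change after 24 h of calcium over each gene list with at least 7 genes tested, in *shScr* cells (blue circles) and ID1 -dox cells (red squares), ordered by the median response difference, with the number of genes tested in parentheses. The medians lie at 3.49 and 0.22 for the spinous genes of the study, 1.86 and 3.74 for the cornified envelope, -1.38 and -2.79 for G2 and mitosis and -0.28 and 1.19 for actin and SRF targets.

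The falls specific to *shScr* cells included basement membrane and integrin genes. *Col4a1* and *Col4a2* encode the chains of type IV collagen of the basement membrane and lie head to head at the shared region printed above. *Col4a1* went from 185, 174 and 163 to 51.5, 30.1 and 45.6 in *shScr* cells and from 55.7, 78.3 and 57.9 to 94.1, 93.3 and 86 in ID1 -dox cells (response difference 2.58, SE 0.24, limma adjusted p = 2.3e-06). *Col4a2* fell by 1.65 in *shScr* cells and had a change of 0.86 in ID1 -dox cells (response difference 2.51, SE 0.23, limma adjusted p = 2.1e-06). *Itga3*, the alpha chain of a laminin receptor, fell by 1.65 in *shScr* cells and had 0.99 in ID1 -dox cells, just under the limit. The sialomucin *Podxl* (ENSMUSG00000025608, chromosome 6, 31519488 to 31563981) had the largest difference of this class, from 15.2, 14.7 and 11.6 to 0.813, 0.299 and 0.606 in *shScr* cells against 2.32, 3.26 and 3.23 to 3.59, 4.09 and 4.17 in ID1 -dox cells. *Dpysl3*, *Lemd1*, *Steap1*, *Hs3st3a1*, *Shank2* and *Emp3* followed, with response differences of 2.66 to 3.71. *Itga3*, *Podxl* and these 6 genes, the 8 largest of the class by size, were lower in ID1 -dox than in *shScr* cells at 0 h, in every library. Ranking by size favours such genes here too. Over the whole class of 154 genes, 68 were called lower in ID1 -dox cells at 0 h and 86 had no call.

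Over 27 basal adhesion and basement membrane genes, 8 fell and 1 rose in *shScr* cells, 3 fell and 2 rose in ID1 -dox cells, and 12 had a response difference above 0 against 3 below. With GC-centred libraries the counts were 10 and 3. *Itgb4*, the hemidesmosome integrin, went from 271, 281 and 233 to 121, 122 and 155 in *shScr* cells, just under the limit at -0.98, and from 139.6, 140.3 and 117 to 248, 273 and 293 in ID1 -dox cells, where it rose (1.03). *Krt8*, a simple-epithelium keratin, fell by 1.26 in *shScr* cells, and *Krt7* and *Krt18* had response differences of 1.46 and 2.38. *Sparc*, a matricellular protein and the main term of the fibroblast marker sum, fell by 1.91 in *shScr* cells and had -0.59 in ID1 -dox cells. The part of that sum in the basement membrane and matrix results was not tested. *Ccnd1*, which encodes cyclin D1, fell from 331, 329 and 256 to 52.9, 53.7 and 52.3 in *shScr* cells. In ID1 -dox cells it stood at 61.3, 114 and 75.2 and 52.4, 52.9 and 52.4, so the cultures met at 24 h at nearly equal levels.

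Late cornified envelope and desquamation genes made up the largest rises specific to ID1 -dox cells. *Klk6* (ENSMUSG00000050063, chromosome 7, 43824499 to 43832030), a kallikrein protease, was at 0 in every library at 0 h and at 0, 0.0855 and 0.28 in *shScr* cells at 24 h, against 36.1, 68.4 and 33.5 in ID1 -dox cells. Against the value of 3 reads in a library at 0 h, the ID1 -dox mean at 24 h was at least 353-fold higher. On the fitted scale the response difference was 6.17, SE 0.36, limma adjusted p = 3.6e-07, but edgeR did not pass it (7.97). *Klk7*, the stratum corneum protease of this family, rose by 5.48 in ID1 -dox cells (*shScr* 0.76). *Krt17*, a keratin of stressed epidermis, went from 15.5, 14.9 and 19.2 to 496, 545 and 555 in ID1 -dox cells and from 7.93, 18.3 and 17.9 to 9.37, 13.9 and 19.5 in *shScr* cells, where the times overlapped (response difference 4.99, SE 0.42, limma adjusted p = 3.5e-06).

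Late cornified envelope proteins (LCE) are small precursors added late to the envelope. *Lce1b* stood at 0.0904, 0.599 and 0.186 in *shScr* and 15.1, 14.9 and 13.3 in ID1 -dox cells at 24 h, with all 0 h libraries between 0 and 0.359. *Lce1k* stood at 0.0301, 0.171 and 0.0932 and 12.8, 13.1 and 8.58, and *Lce1c* at 0, 0.171 and 0.14 and 11.7, 13.2 and 9.13. *Lce1a1* and *Lce1a2* had response differences of 4.47 and 4.29. In a count made after the values were seen, 11 of 13 genes named *Lce* were rises specific to ID1 -dox cells, *Lce1g* was held and *Lce1f* passed in ID1 -dox cells alone without a difference shown. The *Lce* and *Sprr* genes lie in the same cluster on chromosome 3, and the *Lce1* genes are close copies among which reads may be split. Of 45 cornified envelope genes 29 rose in *shScr* and 42 in ID1 -dox cells, 26 of them in both, and 21 had a response difference above 0 against 5 below.

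Actin and SRF target genes responded higher in ID1 -dox than in *shScr* cells. SRF is the transcription factor that answers actin assembly through MRTF coactivators. Of 20 genes 12 rose in ID1 -dox cells and 2 fell in *shScr* cells, and 13 had a response difference above 0 (14 with GC-centred libraries). *Actg1*, gamma actin, went from 639.7, 664 and 619 to 687, 732 and 801 in *shScr* and from 636, 550.3 and 598 to 1749, 1992 and 2001 in ID1 -dox cells (response difference 1.48, SE 0.14, limma adjusted p = 2.1e-06). The crosslinkers *Flna* (filamin A) and *Actn1* (alpha-actinin 1) had response differences of 2.22 and 2.17. Of 18 YAP target genes 8 had a response difference above 0 and 1 below, among them *Ccn1* (3.55), *Amotl2* (2.48), *F3* (1.62) and *Dlc1* (1.44). All 4 were lower in ID1 -dox than in *shScr* cells at 0 h. Over the list, 5 genes were called lower at 0 h and 13 had no call. With GC-centred libraries 7 YAP target genes were above and 0 below 0, with a median of 0.40 in place of 0.88.

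Immediate early genes and some inflammatory genes had response differences above 0. Of 22 immediate early genes 7 rose in *shScr* and 18 in ID1 -dox cells, and 10 had a response difference above 0. *Fos*, an AP-1 subunit, went from 47.8, 35.4 and 28.8 to 27, 40.1 and 62.4 in *shScr* cells and from 7.3, 7.27 and 6.4 to 57.8, 78.4 and 73.1 in ID1 -dox cells, with a start below every *shScr* library (response difference 3.07, SE 0.35, limma adjusted p = 1.7e-05). *Atf3* and *Nr4a1* had 2.53 and 2.69, and the EGF receptor ligands *Hbegf* and *Areg* 2.58 and 2.48. Of 20 alarmin and inflammation genes 9 rose in *shScr* and 17 in ID1 -dox cells, and the response difference was above 0 for 6, among them *Tnfaip3*, a feedback inhibitor of NF-kappaB (2.78), *Nfkb2* (1.93) and *Ptgs2*, cyclooxygenase 2 (2.86), and below 0 for 4, among them *Il18* (-2.09). With GC-centred libraries these counts were 5 above and 2 below 0. For the neutrophil chemokine gene *Cxcl3* the level at 24 h was 9.55, 13.6 and 32.3 in *shScr* and 30.8, 49.7 and 47 in ID1 -dox cells, from 24.6, 11.5 and 8.84 and 3.43, 4.48 and 2.51. *Ccl20* and *Cxcl2* spread widely over the *shScr* libraries at 24 h, with 0.151, 1.37 and 5.22 for *Ccl20* and 0.361, 2.01 and 10.8 for *Cxcl2*, and neither passed with edgeR, where *Ccl20* turned sign (-0.54).

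The falls specific to ID1 -dox cells formed the largest of the 4 specific classes, with 648 genes. With GC-centred libraries they numbered 205, fewer than the 273 rises specific to ID1 -dox cells and the 254 rises specific to *shScr* cells. *Hmgn5* (ENSMUSG00000031245, chromosome X, 109004534 to 109013404), a nucleosome-binding protein, went from 32.3, 31.5 and 41.4 to 45.5, 43.4 and 39.6 in *shScr* cells and from 49.3, 54.3 and 54.7 to 5.31, 5.67 and 6.6 in ID1 -dox cells. All 3 ID1 -dox libraries at 24 h lay below every other library (response difference -3.36, SE 0.17, limma adjusted p = 1.1e-07). *Nusap1*, a spindle protein, fell by 3.89 in ID1 -dox cells and had -0.97 in *shScr* cells, just under the limit. *Arhgap18*, a GTPase-activating protein, *Slc24a3*, a sodium, potassium and calcium exchanger, and *Gnat3*, a G protein subunit known from taste cells, had response differences of -3.29, -3.47 and -3.05. *Slfn9* (-2.58), *Cyp39a1*, an oxysterol hydroxylase (-2.58), and *Nr1h4*, the bile acid receptor gene (-2.76), completed the 8 largest. All 8 of these calls held with GC-centred libraries.

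Genes encoded in mitochondrial DNA and zinc finger genes were among the falls specific to ID1 -dox cells. Of 11 mitochondrial-encoded genes tested 7 were falls specific to ID1 -dox cells, and *mt-Cytb*, cytochrome b, went from 4164, 3949 and 4311 to 3748, 5722 and 5928 in *shScr* and from 6326, 6044 and 6433 to 1546, 1486 and 1541 in ID1 -dox cells. Of 23 respiratory chain genes 7 had a response difference under 0, and these were the same 7, all of them encoded in mitochondrial DNA. With GC-centred libraries 1 was above and 4 were below 0, with *mt-Nd2* and *mt-Nd5* among those that no longer passed. The median response difference of the mitochondrial-encoded genes was -1.78, and -0.80 with GC-centred libraries. Of 263 genes named *Zfp* and a number 126 fell in ID1 -dox and 16 in *shScr* cells, and 87 were falls specific to ID1 -dox cells. This group was picked out after its values were seen. Among all 10801 genes tested 15.9% fell in ID1 -dox and 7.96% in *shScr* cells, and 648 genes were such specific falls. The median response difference of the *Zfp* genes was -0.70, and -0.33 with GC-centred libraries, with a median transcript GC content of 43.9%. Of 14 circadian clock genes 6 had a response difference under 0, and 7 did with GC-centred libraries. Of these *Nr1d2*, a clock repressor (-1.84), *Hlf* (-1.51) and *Per2* (-1.37) were falls specific to ID1 -dox cells, while *Tef* (-1.20) passed by the response difference alone. The receptor genes *Bmpr1a* and *Tgfbr1* had -1.51 and -1.74, and -0.89 and -0.96, under the limit, with GC-centred libraries.

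In opposite directions went 31 genes that fell in *shScr* and rose in ID1 -dox cells and 38 that did the reverse. *Plaur*, the urokinase receptor, went from 18.7, 13.7 and 9.96 to 1.11, 1.45 and 4.24 in *shScr* cells and from 1.63, 3.83 and 1.55 to 11.5, 19.1 and 18 in ID1 -dox cells. *Wnt7a*, a Wnt ligand, went from 32.8, 16.6 and 11.5 to 3.61, 3.89 and 6.25 and from 0.588, 1.35 and 0.894 to 11.5, 12.9 and 11.6. *Fn1*, fibronectin, went from 755, 323 and 233 to 55.1, 42.8 and 44.5 and from 33.9, 52.2 and 27.7 to 107, 118 and 115. In all 3 the *shScr* libraries at 24 h and the ID1 -dox libraries at 0 h lay below every library of the other groups, with response differences of 5.14, 5.08 and 4.63. The limma adjusted p of these was 1.5e-05, 2e-06 and 3.1e-05. The scaffold gene *Akap12*, the protease gene *Adamts15* and *Mical2*, an actin oxidase that feeds SRF, did the same (4.97, 4.19 and 4.16). *Sox6*, a transcription factor gene, went the other way, from 1.54, 1.6 and 2.44 to 5.96, 9.15 and 6.43 in *shScr* and from 34.9, 23.6 and 28.4 to 5.35, 4.09 and 3.22 in ID1 -dox cells, as did the noradrenaline transporter gene *Slc6a2* (-4.31). *Tgm3*, the transglutaminase of the granular layer whose promoter is printed above, rose from 0.323, 1.99 and 0.852 to 6.87, 10.8 and 10.1 in *shScr* cells and fell from 50, 17.9 and 24.9 to 14.8, 12.4 and 11.3 in ID1 -dox cells, ending close to each other (response difference -3.89, SE 0.56, limma adjusted p = 0.00013).

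*Id1* and its paralogs also responded differently. *Id1* stood at 60.7, 103 and 111 in *shScr* cells at 0 h and 27.9, 44.8 and 69.6 at 24 h, a change of -0.99 that missed the limit by little, and rose from 10.5, 13.2 and 7.15 to 73.9, 67.5 and 59.7 in ID1 -dox cells (response difference 3.67, SE 0.45, limma adjusted p = 4.9e-05). The ID1 -dox cells thus started below every *shScr* library and overlapped them at 24 h, and no source used here gives whether *Id1* includes transcripts of the construct. *Id2* fell from 75.9, 71.8 and 70.8 to 17.6, 23.8 and 24.3 in *shScr* cells and stood at 11.3, 15.1 and 9.59 and 11.1, 12.7 and 9.52 in ID1 -dox cells. *Id3* had changes of -0.60 and 1.24 (response difference 1.84). The E-protein genes *Tcf3*, *Tcf4* and *Tcf12* had response differences of 0.81, -0.95 and -0.26, none past the limit, and *Tcf4* fell in ID1 -dox cells (-1.02). Over 14 ID, E-protein and related helix-loop-helix genes 4 response differences were above and 2 below 0.

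Responses specific to *shScr* cells often went with another level at 0 h, and those specific to ID1 -dox cells with another level at 24 h. By arithmetic the response difference equals the difference between the cultures at 24 h minus that at 0 h, so the counts here describe it and do not test it anew. ID1 -dox and *shScr* cells differed in 693 genes at 0 h (6.42%) and in 1725 at 24 h, where 519 were higher in ID1 -dox cells (4.81%) and 1206 lower (11.2%). Of 223 rises specific to *shScr* cells, 123 were already higher in ID1 -dox cells at 0 h, and 172 showed no call at 24 h. Of 154 falls specific to *shScr* cells, 68 were already lower. The falls specific to ID1 -dox cells were the reverse, with no call at 0 h for 618 of 648 and a lower level at 24 h for 533. Among 397 rises specific to ID1 -dox cells 316 had no call at 0 h and 216 were higher at 24 h. All of the 7 spinous genes of the study except *Krt10* were higher in ID1 -dox cells at 0 h. Under quantile normalization the calls at 24 h were 40.6% above 0 instead of 30.1%, and the responses specific to *shScr* cells 47.1% rises instead of 59.2%.

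**Figure D5:**
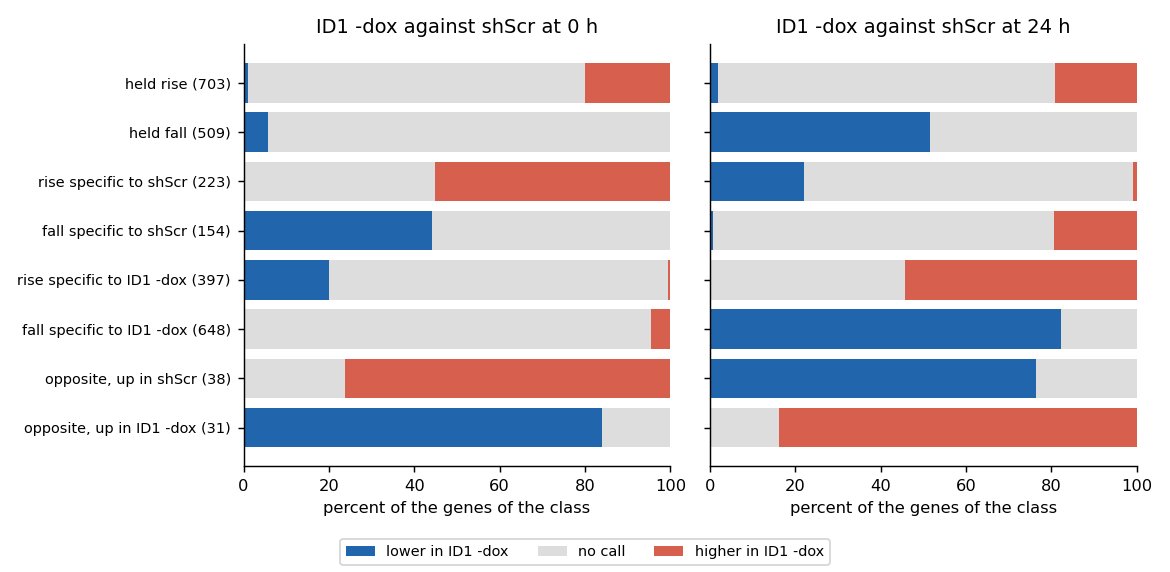
For each class of response, the percent of its genes (horizontal axis, number of genes in parentheses) that were lower in ID1 -dox than in *shScr* cells (blue), showed no call (grey) or were higher (red), at 0 h on the left and 24 h on the right. Of the 223 rises specific to *shScr* cells 123 were already higher in ID1 -dox cells at 0 h, while 533 of the 648 falls specific to ID1 -dox cells were lower in ID1 -dox cells at 24 h.

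Among all genes tested 10.9% rose in *shScr* and 14.8% in ID1 -dox cells, and the response difference passed above 0 for 7.83% and below 0 for 13.2%. With GC-centred libraries 633 of the 10801 genes passed above and 867 below 0. A count near these shares is no result about its list. Of 25 epidermal differentiation factors 12 rose in *shScr* and 13 in ID1 -dox cells, 8 in both, with medians of 0.95 and 1.03. The epithelial ETS factor gene *Ehf* rose in *shScr* cells only (2.75, response difference -2.55, SE 0.30, limma adjusted p = 1.8e-05), and *Sox9* in ID1 -dox cells only (1.86). Of 12 Notch pathway genes 3 had a response difference above and 3 below 0 (1 and 3 with GC-centred libraries), of 20 Wnt pathway genes 4 and 2 (1 and 6 with GC-centred libraries), and of 25 TGF-beta and BMP genes 7 and 3. *Tgfbr3*, a co-receptor, rose by 1.79 in *shScr* and fell by 1.41 in ID1 -dox cells. Of 33 calcium sensing and signalling genes 6 rose in *shScr* and 9 in ID1 -dox cells, with 3 response differences above 0. Among 27 cadherin and tight junction genes 5 were above and 2 below 0, led by *Pard6b*, a polarity gene (2.81), and *Cldn4*, claudin 4 (1.81). Of 10 interferon genes 3 rose in *shScr* and 5 in ID1 -dox cells, 3 in both.

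The remaining lists are given by their response differences that passed, beside 7.83% above and 13.2% below 0 among all genes tested. Counts with GC-centred libraries stand beside 633 above and 867 below 0 of 10801 genes. Many of these counts are small, and a count near those shares is no result about its list. Of 23 matrix remodelling genes 11 were above and 4 below 0, and 6 and 3 with GC-centred libraries. All 4 that passed of 6 chemokine genes and all 3 of 4 simple-epithelium keratins were above 0. The counts above and below 0 were 4 and 6 of 34 G1 and p53 arrest genes, 3 and 4 of 19 fatty acid synthesis genes (1 and 2 with GC-centred libraries), and 5 and 5 of 34 ATF4 and unfolded protein response genes. For 17 EGF receptor ligand and feedback genes they were 5 and 1, for 10 retinoid genes 2 and 3, for 11 prostaglandin genes 3 and 4, for 15 heat shock genes 4 and 1 and for 5 stress keratins 2 and 1. Of the markers of other cells in the table, 2 of 5 hair follicle and sebaceous genes were above and 1 below 0, 1 of 2 melanocyte genes was below, the endothelial gene *Kdr* was above, and the macrophage gene *Cd68* rose in both cultures. Of the fibroblast genes 1 was above and 2 were below, and of 11 keratinocyte markers 1 was above and 1 below.

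AP-1 and E-box letters stood in a larger share of the promoters of held rises than of held falls. Promoters were found for 8331 of the 10801 genes. TGANTCA stood in 11.9% of 506 held rise, 9.94% of 161 *shScr*-specific rise and 8.64% of 301 ID1 -dox-specific rise promoters, against 4.92% of the promoters of genes tested and 7.93% of all 27025 in the table. It stood in 2.27% of 397 held fall promoters. CACCTG stood in 25.9% of held rise and 10.6% of held fall promoters (genes tested 16.8%, all 20%), CAGCTG in 21.5% and 12.1% (14% and 16.1%), TTGCNNAA in 11.5% and 7.56% (7.90% and 10.8%) and AACNGGTT in 1.98% and 1.51% (1.76% and 2.01%). For TTGCNNAA the share was 11.8% in rises specific to *shScr* and 6.31% in rises specific to ID1 -dox cells. CAGCTG stood in 13.7% of rises and 23.0% of falls specific to *shScr* cells, the reverse of the held classes. For ID1 -dox cells its shares were 18.6% of specific rises and 13.1% of specific falls. CACCTG stood in 21.7% and 19.0% of specific rises and falls in *shScr* cells and 19.6% and 14.5% in ID1 -dox cells. These shares are descriptions without a test, and the classes differ in promoter GC content (58.8% in held rises, 63.3% in rises specific to ID1 -dox cells).

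The same contrast in the 12 other libraries, which the classes did not use, gave the same call for most falls specific to ID1 -dox cells. These libraries come from the same silencing and overexpression experiments as the controls. They share what sets those experiments apart and are no independent repeat. There the change in *shId1* cells was subtracted from that in ID1 +dox cells, so the cells differ from the controls by the level of *Id1* and by doxycycline. Of 10815 genes tested 1690 passed (15.6%), 298 above and 1392 below 0. Of the 2264 response differences tested in both, 923 passed with the same sign, which is 40.8% of these and 54.8% of the 1683 in the other libraries, and 51 passed with the opposite sign. By class, 408 of 648 falls specific to ID1 -dox cells passed with the same sign, with a median of -1.15 in place of -1.4, and 96 of 222 rises specific to *shScr* cells. For rises specific to ID1 -dox cells 48 of 396 did, with a median of 0.38 in place of 1.45, and for falls specific to *shScr* cells 32 of 154. Of the genes that moved in opposite directions, 25 of 37 that rose in *shScr* and 9 of 31 that rose in ID1 -dox cells did. *Lce1b* and *Krt17* had 1.91 and 1.98 there, *Klk7* -0.13, *Kif11* -1.96, *Krt15* -1.79 and *Fn1* 2.53. The 13 *Lce* genes as a group had a median of 0.43 there, against 3.6 in the controls. *Lce1c* also passed there (1.87), while *Lce1k*, *Lce1a1* and *Lce1a2* did not (1.4, 1.00 and 0.43). Several lists had medians of opposite sign in the controls and in the other libraries, with 0.86 against -0.56 for cornified envelope genes, 2.35 against -1.97 for chemokines, 1.05 against -0.58 for immediate early genes, 0.49 against -0.97 for alarmin and inflammation genes and 0.91 against -0.26 for basal adhesion and basement membrane genes. Genes of low and high GC content differed in these libraries too, with medians of the response difference of -0.87 at low and 0.44 at high GC content, against -0.77 and 0.45 in the controls.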

How the data were processed

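Libraries of polyadenylated RNA from 12 cultures of mouse epidermal progenitors were compared. Per the labels and the study's methods, reads were demultiplexed (bcl2fastq 2.19.1.403) and aligned to GRCm38, and the authors deposited a signal per gene, counts scaled to library size by TMM and not divided by length. Low genes are absent from the 10818 rows, 10801 of which had a value of at least 1 in 3 of the 12 libraries and were tested. The values were analysed as log2(value + 0.5), which understates changes of low genes, in limma 3.58.1 (R 4.3.3) with trended and robust variance and Benjamini-Hochberg adjustment over all genes tested. A call needed an adjusted p under 0.05 and more than 2-fold. The columns used for *shScr* cells are named H2BGFP and do not say *shScr*. Their assignment rests on the study naming H2BGFP as a backbone of its hairpin vectors and on the other columns matching the other labels. The fits were tested on simulated data in which a set of genes was changed only in ID1 -dox cells at 24 h. All genes there had the same dispersion, with no difference at 0 h and no shift with GC content. The simulation checks the fitting and cannot vouch for calls on the real data, which do have such differences.

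Named genes are the 8 largest response differences of each specific class and of the genes moving in opposite directions, the 10 largest held rises and falls, the 6 held genes with the largest response difference that passed, up to 4 members of each list, and the *Id*, E-protein, *Ccnd1* and spinous genes, those chosen by size being limited to genes whose highest group averaged 2 or more. The *Lce*, *Sprr*, *Zfp* and mitochondrial groups, *Sprr2f*, *Lce1f* and *Lce1g* were added after their values were seen. Members and gene lists were chosen with earlier results of these data known. Alternatives were other pseudocounts, filters and normalizations, all 24 libraries, array weights, a replicate block, each library left out and edgeR 4.0.16 on whole reads recovered from the values of 11 libraries (100.0% of values within 0.05 of a whole read), without *shScr* 24 h replicate 1. GC-centred libraries were added after the data were seen. Transcript GC content is that of the longest GENCODE M21 transcript. Replicate numbers did not pair the samples. Some genes that the rule names are not reported here.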

Additional observations from a re-analysis of the deposited data

Results flagged for a closer look

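The calcium response differed between the control cultures in 2267 of 10801 genes by the test of the response difference itself. This difference is listed because both cultures are controls of the same cell type under the same contrast. Groups of 3 libraries were not checked for a single outlying value.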

How the results depend on the processing

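Depth was at least 21442371 reads a library, and genes at a few reads at 0 h (*Klk6*, *Ccl20*, *Cxcl2*, *Lce*) limit the size of their changes most. Without a limit on the fold change 5728 response differences passed, with 7000 genes changed in *shScr* and 8039 in ID1 -dox cells, 4610 held, 993 specific to *shScr* and 1843 to ID1 -dox cells, and 4027 and 6881 differing at 0 h and 24 h. With GC-centred libraries, an alternative added after seeing the data, these counts were 1500 response differences, 2201 genes in ID1 -dox cells, 478 specific to ID1 -dox cells and 915 at 24 h. The bin centring removes any shift shared by genes of like GC content, and the cause of that shift was not tested. Leaving out each library in turn gave 2075 to 2504 response differences, 1948 to 2255 genes in *shScr* and 3159 to 3398 in ID1 -dox cells, 1106 to 1334 held, 346 to 429 specific to *shScr* and 900 to 1178 to ID1 -dox cells, and 611 to 794 and 1495 to 2032 at 0 h and 24 h. Quantile normalization gave 201 rises and 226 falls specific to *shScr* cells, and 622 genes above and 910 below 0 at 24 h. Array weights ran from 0.138 (*shScr* 24 h replicate 1) to 31.9 (*shScr* 0 h replicate 2). They gave 2603 response differences, 2265 genes in *shScr* and 3365 in ID1 -dox cells. With them 1250 were held, 505 specific to *shScr* and 1081 to ID1 -dox cells. Without both *shScr* libraries numbered 1, 2162 response differences passed, 1983 of them shared. edgeR on recovered reads gave 2342, 2079 of them shared, and turned the sign of *Ccl20* (-0.54) and *Calml3* (-0.14), for which the cause was not tested. It left out *shScr* 24 h replicate 1, whose estimated value of 1 read did not pass its check. It also missed *Klk6* (7.97), *Krt84* (3.64) and *Cxcl2* (1.82). Of 176 named genes with a response difference that passed, 139 passed in all 24 settings. *Sc5d* and *Rrm1* lay close to the limit and lost the call without single libraries (-0.98 and -0.99), and *Cxcl2* without *shScr* 24 h replicate 2 (2.78).

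The replicate numbers share no stated animal or batch, and deviations of same-numbered libraries correlated at 0.092, -0.057 and 0.149 in *shScr* and -0.035, 0.071 and 0.033 in ID1 -dox cells. With the number as a block 2258 response differences passed, 2037 genes changed in *shScr* and 3313 in ID1 -dox cells, 1207 were held, and 378 and 1042 were specific. *Krt6b* and *Tgm5* lost the call under the block.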
